A study of Homo sapiens with 4 samples.

Results

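Acetylation of histone H3 at lysine 27 (H3K27ac) forms long clusters at some places in the genome, away from gene starts, and 129 such clusters of control KGN cells are described here. KGN is an established line of human ovarian granulosa tumor cells, and granulosa cells are the hormone-making cells around the oocyte. The mark was mapped by ChIP-seq, the sequencing of DNA bound to an antibody against it, in 4 libraries. Control cells gave 1 immunoprecipitated (IP) and 1 input library, and cells kept for 24 h with testosterone, labelled 10 um, gave another such pair. Both conditions used the same line, grown in DMEM-F12 medium with 10% FBS, and no other agent or genetic change is labelled. The authors called marked regions once per condition, so each entry of their 2 lists, here called a row, rests on 1 IP library against its own input. With 1 library per kind and condition there is no replicate check, and no p-value between conditions is given. Library totals were not used here, so the depth behind each row is unknown.

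The clusters were chosen on the measured control list itself. Control rows on chromosomes 1 to 22 and X that lay over 3000 bp from the gene start in the authors' annotation were joined where the gap between neighbors was at most 12.5 kb, and stretches of 5 or more rows were kept. This gave 1016 rows in 129 stretches, out of 6413 distal rows and 19110 control rows in all. The stretches therefore held 15.8% of the distal rows and 5.32% of the control rows. They were ranked by summed pileup times row width, in fragment-kb, where pileup is the authors' scaled number of fragments at the summit. Number, place, width, pileup, fold enrichment and rank of the stretches are descriptions, because these values chose or ordered them, while the testosterone list was not used in choosing them.

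H3K27ac is laid down by the acetyltransferases p300 and CBP and marks active promoters and enhancers. Enhancers are stretches of DNA bound by transcription factors that raise the transcription of genes at a distance, and many of them lie between genes or in introns. Where active enhancers lie close together over a long region, the cluster is often called a super-enhancer, and such clusters are often found beside genes that define a cell type or respond to growth signals. The usual definition joins nearby regions, ranks them by signal and takes those above the point where the ranked curve turns steeply upward. In granulosa cells, androgens act through the androgen receptor, a ligand-activated transcription factor that binds mostly to distal sites.

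Against that definition the label of a super-enhancer held for part of the set. The turning point of the ranked curve over all 4230 stitched stretches was at 39.4 fragment-kb, and 174 stretches lay above it. Of these, 88 had 5 or more rows and 86 had fewer, among them 17 single rows. The other 41 of the 129 clustered stretches lay at or below the point. They are called clustered distal stretches here, and no stretch is called a super-enhancer.

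**Figure D1:**
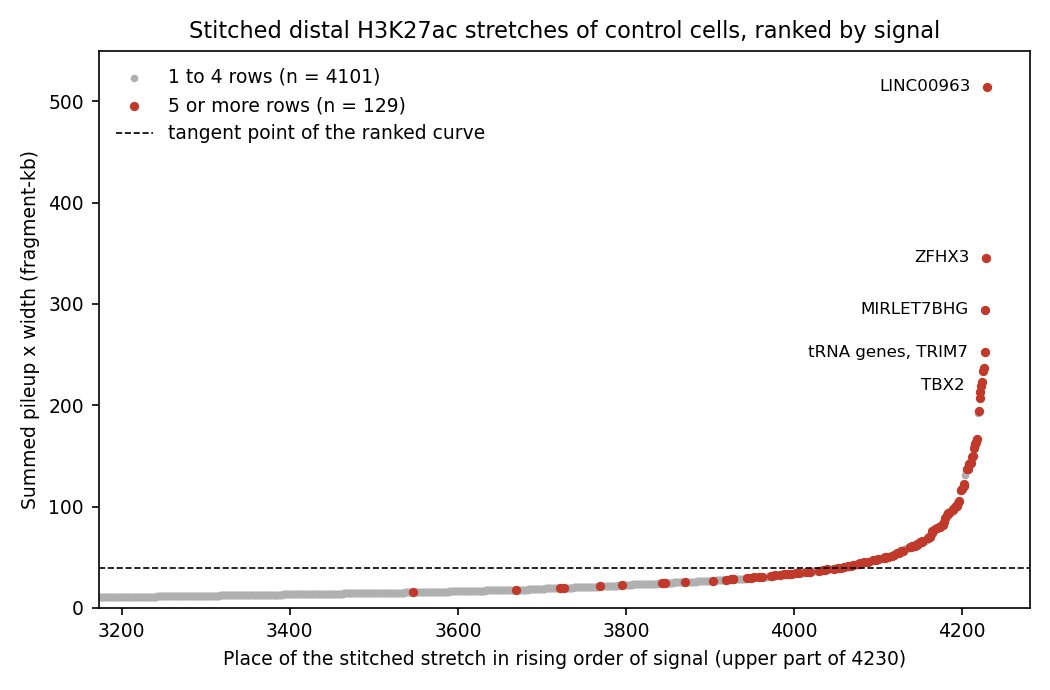
Each point is 1 stitched stretch of distal control rows, placed in rising order on the horizontal axis (upper part of 4230) with its summed pileup times width in fragment-kb on the vertical axis. Red points have 5 or more rows, gray points have 1 to 4, and the dashed line is the tangent point at 39.4; the LINC00963 stretch stands apart at 514.

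Several of the strongest stretches lay on genes of non-coding RNAs, and the mature microRNAs (miRNAs) encoded in the third and the fifteenth are shown because they name what the marked DNA encodes. A miRNA is a short RNA that guides repression of messenger RNAs, mainly through its seed, bases 2 to 8 from the 5′ end, printed here in capitals. The third stretch, chr22:46057660-46129807, held the let-7a-3 and let-7b hairpins, whose 5p arms share the seed GAGGUAG. The let-7 family restrains growth and cell-cycle genes in many tissues. The fifteenth, chr19:13836334-13883850, held the hairpins of miR-23a, miR-27a and miR-24-2 at 1 end and of miR-181c and miR-181d toward the other, and the 5p arms of miR-181c and miR-181d share the seed ACAUUCA. Sequences are from RefSeq on GRCh38.
hsa-let-7a-5p: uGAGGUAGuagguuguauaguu
hsa-let-7b-5p: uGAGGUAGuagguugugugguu
hsa-miR-23a-3p: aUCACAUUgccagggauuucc
hsa-miR-27a-3p: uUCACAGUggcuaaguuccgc
hsa-miR-24-3p: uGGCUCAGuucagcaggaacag
hsa-miR-181c-5p: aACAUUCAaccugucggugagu
hsa-miR-181d-5p: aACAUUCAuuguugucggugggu

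RefSeq placed miRNA genes in 10 stretches. The miRNA sequence table used here matched 16 of these hairpins, with 28 mature sequences, in 9 stretches, and 5 of the matched hairpins lay on a row. The miR-23a and miR-27a hairpins lay on 1 row of 619 bp, chr19:13836334-13836952, and the miR-24-2 hairpin overlapped its edge. The row had a pileup of 15.92 and a fold enrichment of 4.23 over the local background. The let-7b hairpin lay 192 bp from the nearest row and the let-7a-3 hairpin 430 bp. The miR-181c and miR-181d hairpins lay 1455 and 1631 bp from a row. Called rows thus reached the miR-23a cluster and ended short of the let-7, miR-181c and miR-181d hairpins. Outside the 20 strongest stretches, and named after its values were seen, the NRF1 stretch on chromosome 7 held miR-96 on a row with a pileup of 14.05. None of these 3 stretches held a testosterone row.

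Promoters of long non-coding RNAs (lncRNAs) also lay on the rows, although a distance of over 3000 bp to a gene start had been asked for. The authors' annotation was almost wholly of coding genes: of 9767 nearest genes, 9386 matched RefSeq, 9364 of them as coding and 13 as lncRNA. RefSeq promoter windows of 300 bp (250 before to 50 after a start) overlapped a row of a stretch 39 times, 33 times for a lncRNA and 6 times for a coding gene, in 27 stretches. The motif TGANTCA, a binding sequence of the AP-1 factors of the FOS and JUN families, was found on either strand in 4 of the 39 windows (10.3%, Wilson 95% interval 4.06 to 23.6). It was found in 3.69% of 7917 windows on other control rows and in 7.69% of all 34789 windows. These comparison windows were not split by gene type or by distance of the row. Some of the 39 windows overlap one another, so they are not independent. The CRE motif TGACGTCA was in 0 of the 39 (0 to 8.97%), in 3.36% of windows on other control rows and in 1.84% of all windows. The E-box letters CACGTG were in 10.3%, 9.47% and 7.24% in the same order. The letters CCAAT were in 25.6%, 31.3% and 34.6%. For each of these motifs, AP-1 included, the interval of the 39 windows overlapped that of windows on other control rows. A motif is a match of letters and not evidence of binding. The median GC content was 64.3% in the 39 windows, 68.0% on other control rows and 58.7% in all windows.

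The 4 windows with the AP-1 letters are printed below, 5′ to 3′ on the strand of the gene, with the motif in capitals. They are the windows of LINC00963 (chr9:129488410-129488709, plus strand), of ENEMAL beside MALAT1 (chr11:65477438-65477737, minus strand), of NANOS3, an RNA-binding protein of germ cells (chr19:13861786-13862085, plus strand), and of LINC02288 (chr14:77040799-77041098, plus strand).
LINC00963: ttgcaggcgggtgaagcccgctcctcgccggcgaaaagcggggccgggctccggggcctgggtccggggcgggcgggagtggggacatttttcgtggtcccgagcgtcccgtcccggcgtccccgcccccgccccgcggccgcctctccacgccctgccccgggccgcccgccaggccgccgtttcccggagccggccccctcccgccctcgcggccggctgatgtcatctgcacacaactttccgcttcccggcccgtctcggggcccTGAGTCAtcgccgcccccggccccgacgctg
ENEMAL: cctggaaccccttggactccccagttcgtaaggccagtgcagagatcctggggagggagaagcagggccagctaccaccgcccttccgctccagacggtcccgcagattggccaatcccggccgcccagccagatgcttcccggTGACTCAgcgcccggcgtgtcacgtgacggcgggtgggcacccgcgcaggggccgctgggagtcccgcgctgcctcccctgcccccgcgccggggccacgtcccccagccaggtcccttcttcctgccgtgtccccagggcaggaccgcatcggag
NANOS3: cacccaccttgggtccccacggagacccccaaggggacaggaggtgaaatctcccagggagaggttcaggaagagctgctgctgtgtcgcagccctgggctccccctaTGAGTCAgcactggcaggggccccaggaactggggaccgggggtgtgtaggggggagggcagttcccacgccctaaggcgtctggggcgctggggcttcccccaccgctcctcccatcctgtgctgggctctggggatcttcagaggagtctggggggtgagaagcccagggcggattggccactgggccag
LINC02288: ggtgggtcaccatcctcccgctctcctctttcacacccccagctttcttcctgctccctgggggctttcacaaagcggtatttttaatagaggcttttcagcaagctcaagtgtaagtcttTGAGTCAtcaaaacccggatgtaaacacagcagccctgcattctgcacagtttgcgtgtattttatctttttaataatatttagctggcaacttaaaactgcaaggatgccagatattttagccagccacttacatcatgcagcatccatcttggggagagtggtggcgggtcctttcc

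The LINC00963 window lay on a row with a pileup of 30.91 and a fold enrichment of 11.0. That row was among the stronger rows of the strongest stretch. The ENEMAL window lay on a row of 1335 bp with a pileup of 36.53, the highest pileup in its stretch. None of the 4 windows lay on a row that overlapped a testosterone row.

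Each stretch was made of separate short rows. The stretches spanned 5.24 to 94.2 kb with a median of 21.9 kb, and had 5 to 25 rows with a median of 6. Together they spanned 3.25 Mb, of which rows covered 565 kb (17.4%). The gap between neighboring rows had a median of 1737 bp and an interquartile range of 662 to 4472.5 bp, and 307 of 887 gaps were under 1 kb. The strongest row carried a median of 31.5% of a stretch's signal. The share ran from 11.6% beside JUND and LSM4, where signal was spread over 16 rows, to 70.0% beside MNT and SGSM2, where 1 row of 3635 bp held most of it.

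Signal was uneven across the stretches, from 15.3 to 514 fragment-kb with a median of 55.9. The 10 strongest held 26.2% of it and the 20 strongest 41.4%. The strongest stretch alone held 4.92%, 1.49 times the signal of the second and 9.21 times the median. The 15.8% of distal rows that lay in stretches held 22.6% of the distal signal. Their rows had a median width of 415 bp, a pileup of 14.99 and a fold enrichment of 4.72, beside 338 bp, 13.11 and 4.57 for the 5397 other distal rows. Their local background, solved from fold and pileup, had a median of 2.16 fragments against 2.0. The highest rows of the distal list were not in stretches: the highest pileup was 54.3 in a stretch and 78.7 outside.

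The strongest stretch (chr9:129452670-129500822) had 17 rows over 48.2 kb, and rows covered 37.9% of it. It held the start of LINC00963, a lncRNA described in prostate cancer cells that ran on beyond the stretch. Its rows lay 108063 bp or more from the start of their authors' nearest gene, NTMT1, which methylates the amino end of proteins. The only coding gene inside it has no name beyond LOC124900275, and no other lay within 50 kb. Its tallest row, chr9:129484941-129487311, was 2371 bp wide with a pileup of 54.32 and a fold enrichment of 13.8. A row of 3216 bp with a pileup of 32.78 lay just before it. The lowest of the 17 rows had a pileup of 9.37.

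It was part of a longer run. A group of 4 stretches on chromosome 9, none over 48.8 kb from the next, lay between 129317991 and 129570521, a span of 253 kb with 59 rows and 9.14% of all stretch signal. The fifth stretch by rank, chr9:129317991-129353469, opened that run with 15 rows and 237 fragment-kb. It held LINC01503, a lncRNA that has been described as a super-enhancer transcript in squamous cell carcinoma. Between these lay the stretch of rank 23, with 21 rows but only 137 fragment-kb. Over the whole set, 41 stretches fell into 18 such runs, counted where the next stretch lay within 100 kb. Other runs of 3 lay around SKI on chromosome 1, near BAHCC1 on chromosome 17 and at BCOR, a transcriptional corepressor, on chromosome X.

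The second stretch (chr16:73019264-73071797) lay within ZFHX3, which encodes a large homeodomain and zinc-finger transcription factor. It had 20 distal rows over 52.5 kb, all annotated as intronic, with pileups from 13.11 to 51.51 and a signal of 346 fragment-kb. A further 5 control rows inside it lay within 3000 bp of a ZFHX3 start and are not counted in its signal. Its rows stood on a high local background, with a median of 3.60 fragments that was the third highest of the 129 stretches. The part of that background in its rank was not tested. Its signal was spread over many rows, the strongest holding 13.4%.

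The third stretch, with the let-7 hairpins, had 20 rows over 72.1 kb and a signal of 294 fragment-kb. Its highest rows lay at the PRR34-AS1 and LINC02939 side, the first at chr22:46069276-46070733 with a pileup of 38.4 and a fold enrichment of 13.8. Along the let-7b host gene MIRLET7BHG the rows were lower and narrower, and the row nearest let-7b had a pileup of 15.92. PPARA, a nuclear receptor that controls fatty acid breakdown, lay within 50 kb. Its neighbor on chromosome 22, rank 27 beside WNT7B, lay 42.6 kb away.

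**Figure D2:**
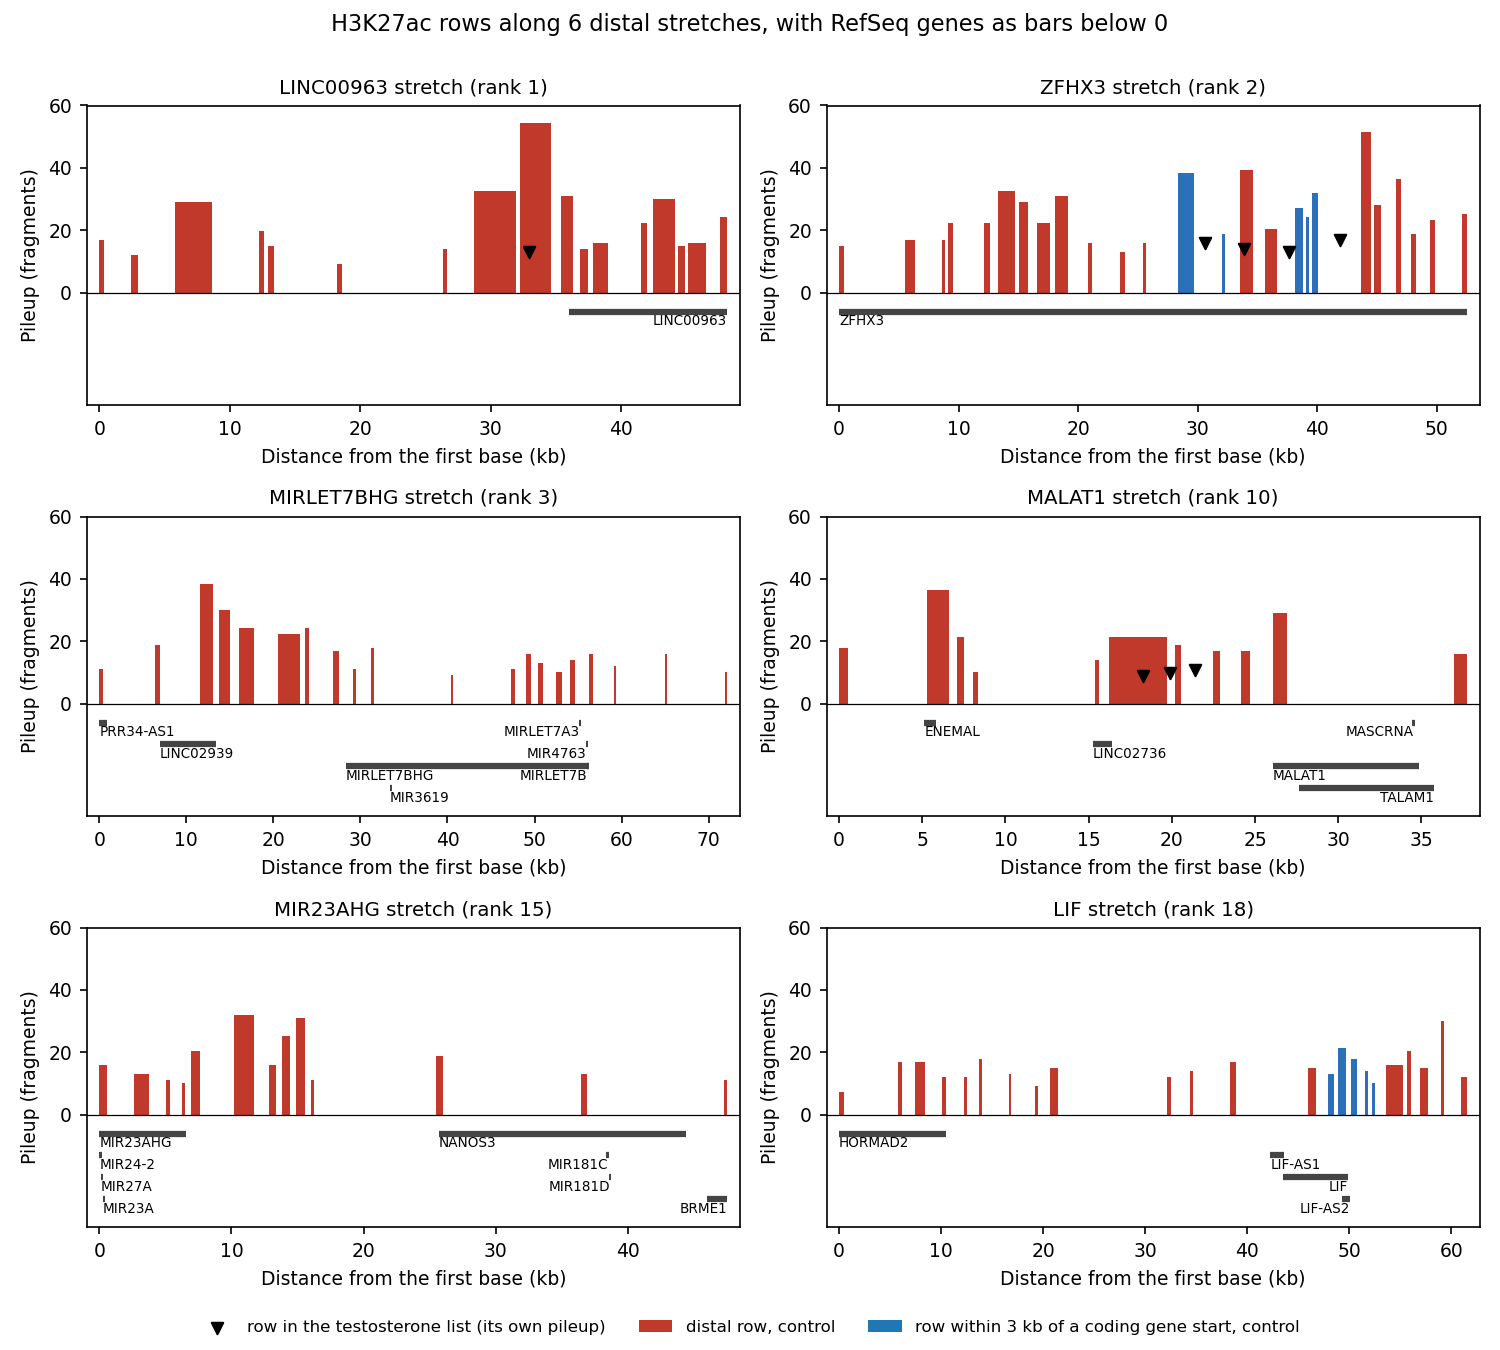
Bars show the control rows of 6 stretches at their distance from the first base in kb, with the authors' pileup in fragments as height, red for distal rows and blue for rows within 3000 bp of a coding gene start. Black triangles are rows of the testosterone list at their own pileup and gray bars are RefSeq genes; the ZFHX3 stretch held 4 triangles, that of MALAT1 3, that of LINC00963 1 and the other 3 stretches none.

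Transfer RNA genes lay in the fourth stretch and in 2 others. The fourth (chr5:181159988-181194193) held 8 transfer RNA genes beside TRIM7, a ubiquitin ligase, in 10 rows and 253 fragment-kb. Of that signal, 56.5% came from 1 row of 3626 bp, whose local background of 6.0 fragments was high. The ZNF213 and OR1F1 stretch of rank 26, named after its values were seen, held 12 transfer RNA genes. Of all stretch rows, 1.48% lay within 1 kb of a transfer RNA gene (Wilson 95% interval 0.897 to 2.42), against 0.871% of the other distal rows (0.656 to 1.16). The intervals overlap.

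The tenth stretch (chr11:65471660-65509406) held MALAT1, an abundant nuclear lncRNA, together with ENEMAL, LINC02736 and the antisense TALAM1. It had 11 rows and 207 fragment-kb, and its widest row, chr11:65487888-65491347, had a pileup of 21.54 at a fold enrichment of 5.64. MALAT1 itself began at a row of 830 bp. Just outside the set, a pair of wide rows whose authors' nearest gene was FRMD8, at chr11:65417278-65423306, reached 131 fragment-kb. The fourteenth stretch (chr7:130894218-130932493) lay on LINC-PINT, a lncRNA induced by p53, with 13 rows. Of the 20 strongest stretches 18 overlapped a lncRNA gene, and of all 129 there were 70. The 20 strongest spanned 0.82 Mb and the other 109 spanned 2.43 Mb, so the strongest were longer on average. The part of length in these counts was not tested. Stretch rows lay inside a lncRNA gene in 22.8% of cases (20.4 to 25.5) against 17.5% of other distal rows (16.5 to 18.5). Neighboring rows of a stretch can lie in the same gene, so these intervals cover counting error only. Rows within 1 kb of a lncRNA start were no more frequent, 5.91% against 6.71%, with overlapping intervals.

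Coding genes overlapped 77 of the stretches, in whole or in part. TBX2, a T-box transcriptional repressor, lay in the eighth (chr17:61384730-61416874) with 13 rows and 219 fragment-kb. The ninth overlapped parts of NES, the intermediate filament protein nestin, and of BCAN, a matrix proteoglycan, whose starts lay outside it. There 9 rows covered 70.8% of 13.7 kb, the densest cover of the 20 strongest. MNT, a MAX partner that opposes MYC, lay in the eleventh. LIF, a cytokine of the interleukin 6 family, lay in the eighteenth (chr22:30196939-30258478) with 18 rows over 61.5 kb, and OSM, a cytokine of the same family, lay within 50 kb.

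The others of the 20 strongest were of the same kinds. PIM3, a serine and threonine kinase, lay in the sixth with 15 rows. The seventh, at PWWP2B, was the longest and had the most rows, 25 over 94.2 kb, but its signal of 223 fragment-kb was spread thinly at a median pileup of 13.11. DDIT4, an inhibitor of the kinase complex mTORC1, lay near the twelfth. SKI, a repressor of SMAD signaling, lay near the thirteenth and overlapped the sixteenth. The seventeenth held TMEM105. CBX8, a Polycomb protein, lay in the nineteenth, with CBX2 of the same family within 50 kb. The twentieth, beside the receptor gene GPR132, was short: 5 rows covered 69.3% of 8.45 kb.

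By the authors' annotation, 58.0% of stretch rows (54.9 to 61.0) were distal intergenic and 34.6% intronic, against 46.1% and 39.9% of the other distal rows. Rows in 3′ untranslated regions made up 2.95% against 5.87%, and those in exons 2.17% against 4.54%. Neighboring rows share their surroundings, so the interval covers counting error only. The part of the clustering rule in these shares was not tested. The stretches were spread unevenly over chromosomes. Chromosomes 1, 9, 17 and 22, which had the most stretch signal, together held 51 of the 129. They held 42.0% of stretch rows, against 27.5% of other distal rows. Because the stretches themselves picked these chromosomes, the difference is a description. Chromosomes 13 and 21 held none, and had only 35 and 76 distal rows.

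Genes of 9 lists were looked for within 50 kb of a stretch, where 314 of 19974 protein-coding genes, 1.57%, lay. Of the 234 listed genes 23 lay there, 9.83%. The lists were drawn up with earlier results of these data known, so the difference from all genes is a description. It also compares chosen, well-studied genes with every coding gene, expressed or not.

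Among TGF-beta and BMP genes, which act through SMAD factors in granulosa cells, 5 of 26 lay near a stretch. They were SKI, the inhibitory SMAD6, the BMP receptor gene BMPR1A, and ID1 and ID2, targets of BMP signaling. SKI was touched or neighbored by 3 stretches and ID2 by 2. The stretch at SMAD6 lay within the gene and had 5 rows over 40.2 kb at 29.1 fragment-kb. The one near ID1 had 9 rows and 77.5 fragment-kb, 8.73 kb from the gene.

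Of the AP-1 and immediate early genes 4 of 25 lay near one: JUND, FOSB, IER2 and MYC. JUND, a subunit of AP-1, lay 3.11 kb from a stretch of 16 rows. FOSB, another subunit, lay 4.77 kb from one of 6 rows, and IER2, an immediate early gene, 0.725 kb from another of 6. MYC was at the far edge of the window, 49.8 kb from a stretch of 5 rows.

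Of the granulosa and steroid genes 3 of 24 lay near one. CYP11A1, which makes pregnenolone from cholesterol, lay 5.97 kb from a stretch of 7 rows and 35.1 fragment-kb. HSD17B1, which makes estradiol from estrone, lay 20.6 kb from one of 6 rows. SCARB1, a receptor that takes up cholesterol from lipoproteins, lay 30.8 kb from one of 6 rows. These 3 stretches ranked 98, 64 and 79 in the order named, and none held a testosterone row.

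Of the androgen-responsive genes 0 of 25 lay near a stretch. A list of 25 genes is too small to tell 0 from the 1.57% of all coding genes. A distal row of any kind lay within 50 kb of 8 of the 25, and of 6274 of all 19974 coding genes. ERRFI1, an inhibitor of the EGF receptor, was the authors' nearest gene of a pair of stretches (ranks 118 and 122) that lay beyond 50 kb. Cytoskeleton and adhesion genes numbered 4 of 35, namely ACTB, ACTG1, ITGA5 and LMNA. The Hippo list had 2 of 20, TEAD3 and ARHGEF17, and a mixed list of transcription factors 2 of 26, ZFHX3 and TBX2. The RUNX, CEBP and ETS genes of that list were not among those near a stretch. LIF and PDGFB were 2 of 27 cytokine and growth factor genes. The list of coactivators and histone acetylation had 1 of 27.

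**Figure D3:**
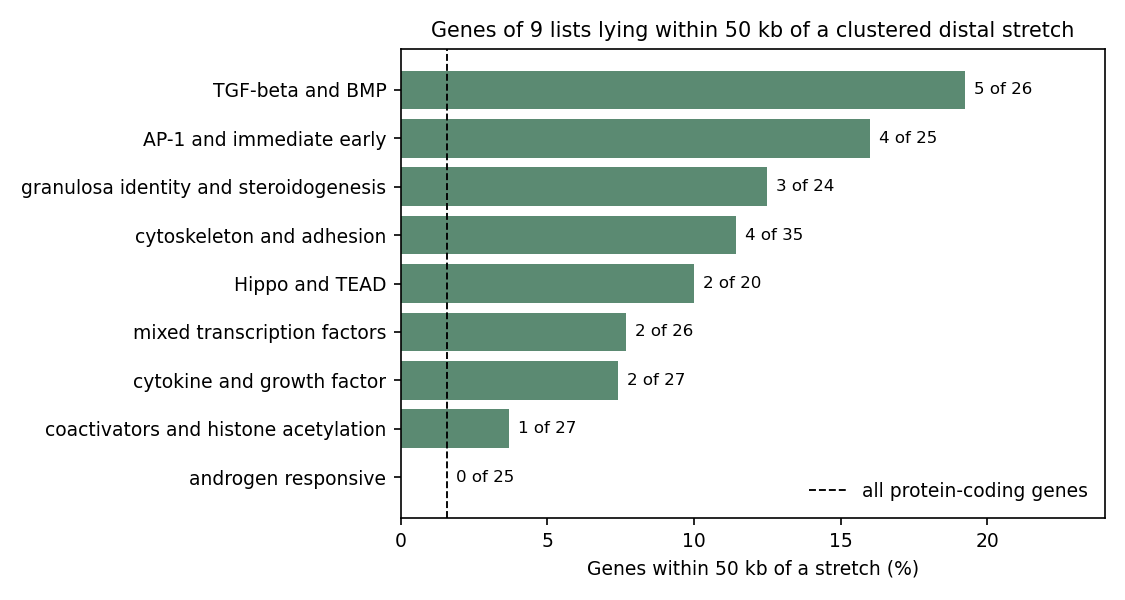
Bars give the percent of each list's genes that lay within 50 kb of a clustered distal stretch, with the counts beside them, and the dashed line is the 1.57% of all protein-coding genes. The TGF-beta and BMP list is highest at 5 of 26 and the androgen-responsive list is at 0 of 25.

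The labelled cell type was checked on promoter rows of control cells. Of 11 genes listed here for granulosa cells, FOXL2 and NR2F2 had a row within 1 kb of the start, with a highest fold enrichment of 10.7 and 7.86. NR2F2 is also a marker of theca and stroma, so its row does not set granulosa cells apart. Markers that define granulosa cells, such as the receptor gene FSHR, the aromatase gene CYP19A1, AMH and INHA, had no such row. Of 4 epithelial markers 3 had one (EPCAM, KRT8 and KRT18). Among the other genes listed, 0 of 5 theca and stroma, 0 of 3 endothelial and 0 of 2 leukocyte markers did. None of these markers lay within 50 kb of a stretch.

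Nearest genes of the stretch rows numbered 152, and 118 of them, 77.6% (70.4 to 83.5), had a control row within 1 kb of their start. Of the 3059 genes nearest only to other distal rows 59.8% (58.1 to 61.5) had one. The 152 genes were chosen by dense rows of the same control list. The part of that density in their share was not tested. After testosterone a promoter row was listed for 5 of the 152, 3.29% (1.41 to 7.47), against 1.70% of the 3059 (1.30 to 2.22). These intervals overlap. The shares over all genes were not computed. The 5 were CBX8, FOSB, IER2, RAI1 and TXN2. The row at IER2 had a pileup of 16 and a fold enrichment of 7.89, and that at FOSB had 12 and 5.65. The rows at CBX8 and RAI1 lay within the span of the stretch, while the stretches at or near FOSB, IER2 and TXN2 held no testosterone row.

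The comparison with testosterone asked which stretches still held called rows in the testosterone list, which has 604 rows where the control list has 19110. Of the 1016 stretch rows 18 overlapped a testosterone row by at least 1 bp, or 1.77% (1.12 to 2.78). Of the 5397 other distal rows 34 did, 0.630% (0.451 to 0.879), and the 2 intervals do not overlap. Without rows within 3000 bp of a RefSeq start, lncRNA starts included, the shares were 1.55% and 0.720%, for which no intervals were computed. Over all control rows the share was 0.884%, over all distal rows 0.811%, and over rows within 1 kb of a start 0.942% (0.777 to 1.14). Rows are not replicates and neighbors in a stretch share their surroundings, so the intervals cover counting error only. A control row with no testosterone row was not called there; this does not show that the mark was absent. A lower mark after testosterone is not established here. Even if it were, bulk chromatin could not tell fewer marked cells from less mark per cell.

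In percentage points the gap between stretch rows and other distal rows was largest among wide rows. Over 1000 bp, 7 of 106 stretch rows overlapped a testosterone row, 6.60% (3.24 to 13.01), against 3 of 194 other distal rows, 1.55% (0.527 to 4.45). From 600 to 1000 bp the order turned, with 1.22% against 1.61%, and the intervals overlapped in every width class. Stretch rows were wider than other distal rows, so width moves with membership. The 18 overlapped rows had a median width of 614 bp and pileup of 18.3, against 413 bp and 14.99 for the 998 that were not. They lay in 17 stretches.

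**Figure D4:**
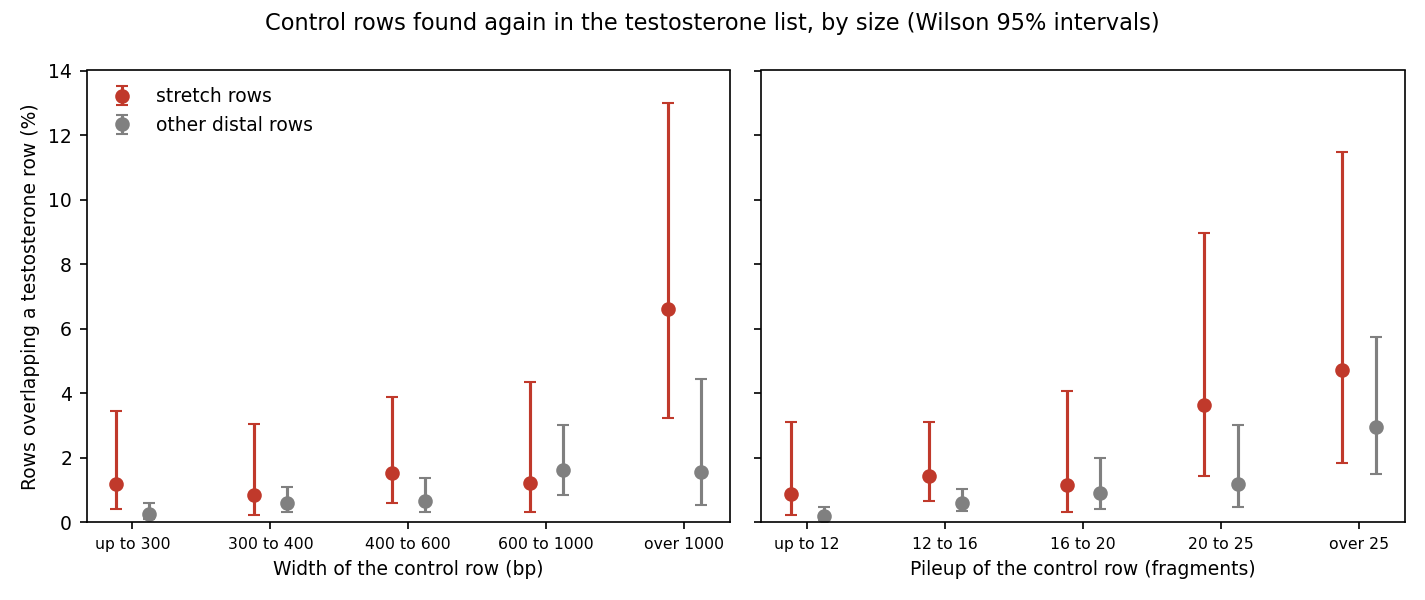
Points give the percent of control rows that overlap a row of the testosterone list, with Wilson 95% intervals, by width in bp (left) and by pileup in fragments (right) of the control row, red for stretch rows and gray for other distal rows. At widths over 1000 bp stretch rows are at 6.60% and other distal rows at 1.55%, with overlapping intervals.

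Counted from the other list, 39 of the 604 testosterone rows lay between the first and last base of a stretch, 6.46% (4.76 to 8.71). They fell in 27 stretches, of which 19 held 1 row, 5 held 2, 2 held 3 and 1 held 4. The other 102 stretches held none. This was 11.99 rows per Mb of stretch (exact Poisson 95% interval 8.53 to 16.4), against 6.99 (5.01 to 9.48) in the spans of stretches with 2 to 4 rows. These intervals overlap. The 20 strongest stretches held 17 of the 39, or 20.7 per Mb (12.1 to 33.2), and the other 109 held 22, or 9.04 per Mb (5.67 to 13.7). Here too the intervals overlap. Testosterone rows were uneven among the strongest too: the second held 4, the third and the fourth none and the fifth 2.

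The testosterone rows in stretches were low, as were those elsewhere. Their pileup ran from 9 to 17 with a median of 11, beside 10 for testosterone rows elsewhere. Their fold enrichment ran from 3.56 to 6.47 with a median of 4.81, beside 4.64 elsewhere. The median width was 316 bp beside 280 bp, and the median -log10 q 2.40 beside 2.16. Their -log10 q reached 4.31 at most, and 14 of the 39 were under 2. Pileups of the 2 lists are scaled to different libraries, so a control and a testosterone pileup are given side by side and not as a ratio.

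Of the 39 rows, 19 lay on a stretch row, 3 on another control row and 17 on no control row. Testosterone rows in stretches thus lay on a control row in 56.4% of cases (41.0 to 70.7), against 148 of 565 elsewhere, 26.2% (22.7 to 29.97). The stretches are where control rows are dense, and the part of that density in this share was not tested. The 20 off a stretch row lay 298 to 5364 bp from the nearest one, with a median of 1133.5 bp.

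ZFHX3 held the most, with 4 testosterone rows. Their pileups were 16, 14, 13 and 17 and their fold enrichments 4.81, 4.08, 3.58 and 5.23. The second of them lay on a stretch row, chr16:73052831-73053876, that had a control pileup of 39.34 and a fold enrichment of 10.5. The other 3 lay between control rows, as annotated promoter rows within 3000 bp of a ZFHX3 start. The local background under these 4 rows was 2.44 to 2.91 fragments, above the median of 1.34 for the 39 rows in stretches, and its part in their number was not tested. Without the ZFHX3 stretch, 35 testosterone rows remained in the others, and 1.71% of their rows were overlapped.

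The MALAT1 stretch and another on chromosome 12 followed with 3 each. Of the 3 in the MALAT1 stretch, a pair lay on the 3460 bp row, with pileups of 9 and 10, and the third lay 669 bp from the nearest stretch row, with a pileup of 11. None lay on the MALAT1 gene itself. The stretch whose authors' nearest gene was SLC38A2, a glutamine transporter, was only 78th by signal and had no coding gene within 50 kb. Its 3 testosterone rows had pileups of 14, 11 and 15, and all 3 lay more than 50 kb from the SLC38A2 start and off the control rows, 363 to 1109 bp from the nearest.

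At the strongest stretch 1 testosterone row, with a pileup of 13 and a fold enrichment of 3.58, lay on the tallest control row. Its local background was 2.91 fragments and its -log10 q 1.57. The IER5L stretch with LINC01503 held 2, both on control rows. The PWWP2B and LINC-PINT stretches held 2 each. So did the stretch of rank 36 within DLGAP1, whose authors' nearest gene was mostly TGIF1, a SMAD corepressor, and that of rank 119, for which it was TBX2.

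Single testosterone rows lay in 19 stretches. In the 20 strongest these were the stretches at LINC00963, DNAJB12, CBX8 and GPR132. The row at GPR132 lay on a control row of 1364 bp and had a pileup of 13 at a fold enrichment of 6.09. The highest fold enrichment of the 39, 6.47, was in the rank 87 stretch on a control row of 289 bp. PKDCC, a secreted protein kinase, lay within 50 kb of that stretch, while the authors' nearest gene of the testosterone row was EML4, with its start more than 50 kb away. The other stretches are named here by the authors' nearest gene of the testosterone row. At JUND, LDB3, PTBP1, ID2, SERPINH1, a collagen chaperone, and a pair of stretches at IRF2BPL, the single row lay on a control row of the stretch. At LMNA, HM13, CUBN, RAI1, SMAD6 and ERRFI1 the row lay off the stretch rows, while at C9orf3 it lay on one.

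Where the rule drew its lines, values ran on without a step. Stretches of 4 rows numbered 87, with a median of 27.9 fragment-kb, and those of 5 rows numbered 43, with a median of 37.1. The strongest stretch just outside, 4 rows near MKNK2 at chr19:2055902-2065335, had 193 fragment-kb and would have ranked 12th. The longest gap joined was 12497 bp and the shortest not joined 12565 bp. The member row closest to a start was 3030 bp away. The 87 stretches of 4 rows held 14 testosterone rows and the 43 of 5 rows held 5.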

How the data were processed

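H3K27ac ChIP-seq tables of KGN cells were used as deposited, 1 per condition, each called by the authors on 1 IP library and its input. Per the submitters' processing notes the tools were bedtools, ChIPseeker, MACS2 and Bowtie2 2.0, and the builds mm10 and hg38. Their settings: not given in the sources used here. The deposited pileup is a signal, the fragments at the summit after the caller's scaling. The deposited fold enrichment is a ratio, and the deposited significance is a -log10 p and a -log10 q. After testosterone the headers of both significance columns were missing, so these were read by order. Positions were read as GRCh38 (hg38), 1-based.

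From these values, distal control rows were stitched, ranked by summed pileup times width and compared with the testosterone list at an overlap of at least 1 bp. Local background was solved from fold as (pileup + 1) / (background + 1). Shares carry Wilson 95% intervals and rates exact Poisson 95% intervals, both for counting error only. The stitching code was tested on simulated data. Gene positions, promoters and miRNAs are from RefSeq. A gene counted as inside or held by a stretch where any part of its body overlapped it.

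The members and gene lists were chosen with earlier results of these data known. Named were the 20 strongest stretches, every stretch with a testosterone row, the 3 with most rows and those within 50 kb of a listed gene. Some genes that this rule takes are left out of the text. Markers of granulosa, theca and stroma, epithelial, endothelial and leukocyte cells were also looked up. A planned AP-1 motif count in the rows needed a genome and was not run. Alternatives were other gaps, distances, row numbers, thresholds and overlaps. Another 2 were chosen after seeing the data. Python 3.11.15, pandas 2.3.3, numpy 2.4.6, scipy 1.17.1 and matplotlib 3.10.9 were used.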

Additional observations from a re-analysis of the deposited data

How the results depend on the processing

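The number of stretches followed the rule. From 129 it went to 79 at a gap of at most 5000 bp and 195 at 25000 bp, to 194 with rows over 1000 bp from a start, to 216 at 4 or more rows and 64 at 7 or more, and to 26 with control rows of -log10 q of at least 5. Testosterone rows inside stretches went from 39 to 16 and 78 at the same 2 gaps and to 18 with the stricter control rows. They numbered 19 where the overlap had to be with a stretch row, and 25 with testosterone rows of -log10 q of at least 2. The overlapped share of stretch rows, 1.77%, was 3.98% with the stricter control rows and 3.54% when rows within 1000 bp counted. In all 12 alternatives it was above that of the other distal rows, from 1.28% to 3.98%. Of 36 values under alternatives 23 stayed within 1.5 times the main count or within the interval of the main share, and 13 moved beyond. Leaving out rows within 3000 bp of a RefSeq start, lncRNA starts included, left 108 stretches and 29 testosterone rows. The share was then 12 of 776 stretch rows, 1.55%, against 0.720% of the other distal rows. The alternatives reuse many of the same rows and no intervals were computed for them. Whether the intervals stay apart without those rows was therefore not tested. The ranking kept 18 of its 20 strongest by fold enrichment times width and 14 by summed -log10 p. The AP-1 share of the rows was not run. No paired analysis was possible because each condition has 1 IP library.

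Depth is unknown on both sides. The testosterone list holds 604 rows, and a stretch without one is a stretch where nothing was called, not one shown to lack the mark. With 1 library per condition no difference between the conditions has an error of its own.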
